A study of Mus musculus with 38 samples.

Results

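The insulin-like growth factor (IGF) family was examined as 10 genes: the ligands Igf1 and Igf2, the receptors Igf1r and Igf2r, and the binding proteins Igfbp2, Igfbp3, Igfbp4, Igfbp5, Igfbp6 and Igfbp7. These genes were taken from the table by symbol, whatever their values, and all 10 were found among the 13260 genes of the RNA-Seq table. Igfbp1 was not analysed here. Each library was made by the SmartSeq2 method, which amplifies cDNA from polyadenylated RNA, from 100 cells sorted by flow cytometry from the long bones of C57Bl/KaLwRij mice. The values are RPKM, read counts scaled to gene length, which allows levels to be compared between genes, and to a library size. The library size used was not the total of reads on genes but 0.627 to 1.60 times that total (0.627 to 0.885 in SP, 0.639 to 1.19 in EC, 0.844 to 0.98 in OP and 1.31 to 1.596 in MM), so levels in MM are lower against those in SP than they would be on plain totals.

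Mice of the substrain C57Bl/KaLwRijHsd, 8 to 10 weeks old, were injected intravenously with PBS vehicle (healthy) or with 1000000 5TGM1-GFP cells (myeloma-bearing) and were culled on day 23. No mice received any other treatment. 5TGM1-GFP cells are a transplanted myeloma line of mice with a green fluorescent protein marker, so the model has a single tumour source. From collagenase digests of the bone, cells without the blood markers CD45 and Ter119 were sorted into CD31+ endothelial cells (EC) and, among cells without CD31, into Sca1+ALCAM- stromal progenitors (SP) and ALCAM+Sca1- osteoprogenitors (OP). There were 5 EC and 5 SP libraries from healthy mice and 5 of each from myeloma-bearing mice, and 4 OP libraries from each. GFP+ myeloma cells (MM) of myeloma-bearing mice gave 5 libraries from the bone lining and 5 from the central marrow. Replicates are named here by the letter in the library title (C, L, M, N and O for healthy, D, E, G, I and J for myeloma-bearing mice). The labels do not say that a letter is a single mouse, and p-values therefore measure the spread between libraries, which may be partly technical.

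IGF1 and IGF2 are secreted growth factors that signal through the tyrosine kinase receptor encoded by Igf1r, while the receptor encoded by Igf2r binds IGF2 and carries it to lysosomes. The binding proteins are secreted proteins that hold IGFs in the extracellular space and in the circulation, and proteases that cut them set IGFs free. Bone matrix is a large store of IGFs, and osteoblast lineage cells are known both to make and to respond to them. IGF1 is also known as a growth and survival factor for myeloma cells.

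The promoters of the 4 binding protein genes that differed most between niche cell types are shown first, because the genes fall into a pair that was higher in EC (Igfbp3, and Igfbp2 in myeloma-bearing mice) and a pair that was higher in SP (Igfbp5 and Igfbp6). The place of Igfbp2 is the weakest, since it entered the test against SP only through EC libraries, as given below, and was not called in healthy mice. Each run holds 250 bases before and 50 after the start site of RefSeq, on assembly GRCm38.p6, which is the build of the deposited values, and capitals mark CG pairs. The run of Igfbp2 is chr1:72824230-72824529 on the plus strand, that of Igfbp3 chr11:7213874-7214173 on the minus strand, that of Igfbp5 chr1:72874816-72875115 on the minus strand and that of Igfbp6 chr15:102143936-102144235 on the plus strand, just before the GENCODE start of that gene.
Igfbp2: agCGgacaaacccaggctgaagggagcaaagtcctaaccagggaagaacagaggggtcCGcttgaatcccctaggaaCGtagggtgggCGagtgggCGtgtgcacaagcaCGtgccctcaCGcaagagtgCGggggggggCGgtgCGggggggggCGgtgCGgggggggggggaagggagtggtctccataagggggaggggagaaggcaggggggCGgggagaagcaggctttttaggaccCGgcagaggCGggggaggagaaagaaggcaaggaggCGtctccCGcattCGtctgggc
Igfbp3: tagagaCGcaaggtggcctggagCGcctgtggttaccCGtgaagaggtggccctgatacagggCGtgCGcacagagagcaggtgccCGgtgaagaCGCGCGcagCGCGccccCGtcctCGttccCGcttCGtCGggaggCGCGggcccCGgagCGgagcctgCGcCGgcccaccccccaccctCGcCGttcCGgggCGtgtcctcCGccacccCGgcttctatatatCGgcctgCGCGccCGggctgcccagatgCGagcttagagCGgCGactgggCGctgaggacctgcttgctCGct
Igfbp5: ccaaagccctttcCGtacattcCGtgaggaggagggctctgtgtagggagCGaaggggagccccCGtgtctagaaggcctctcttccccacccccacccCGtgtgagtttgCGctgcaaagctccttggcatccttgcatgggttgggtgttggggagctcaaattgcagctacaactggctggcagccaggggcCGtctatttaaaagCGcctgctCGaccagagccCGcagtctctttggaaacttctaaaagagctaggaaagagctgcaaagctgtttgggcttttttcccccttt
Igfbp6: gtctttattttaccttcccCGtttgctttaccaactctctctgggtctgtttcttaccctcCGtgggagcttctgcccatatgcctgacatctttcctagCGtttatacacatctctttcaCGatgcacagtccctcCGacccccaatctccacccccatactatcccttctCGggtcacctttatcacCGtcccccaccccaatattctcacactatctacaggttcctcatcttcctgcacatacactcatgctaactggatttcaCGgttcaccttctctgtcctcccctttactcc

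The promoter of Igfbp3 held 37 CG pairs and that of Igfbp2 18, against 10 for Igfbp5 and 8 for Igfbp6. The median over 32851 mouse promoters of the same length was 7. Promoters of all 10 members were matched by symbol. Those of the other binding proteins were rich in CG pairs, with 27 for Igfbp4 and 33 for Igfbp7, as were those of the receptors, with 48 for Igf1r and 34 for Igf2r, while that of Igf1 held 6. Igf2 has 4 promoters in RefSeq, with 2 to 24 CG pairs, and Igfbp2 has a further promoter with 14. The letters TATAAA, on either strand, were found in the promoters of Igfbp4 and Igfbp6, each with a single match, and in 13.6% of all promoters. CCAAT, also on either strand and present in 37.4% of all promoters, was found 2 times in the Igfbp6 promoter and not in the windows of the other 3 genes shown. GGGCGG, present in 35.7%, was found 3 times in the Igfbp2 run and not in the other 3 runs. These matches describe the sequences and no factor binding was measured.

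On GRCm38 (GENCODE M21), Igfbp2 lies at chr1:72824503-72852474 on the plus strand and Igfbp5 at chr1:72857932-72874884 on the minus strand. These neighbours converge, with 5457 bases between their ends. Igfbp3 lies at chr11:7206086-7213923 (minus strand), Igfbp4 at chr11:99041244-99054392 (plus strand), Igfbp6 at chr15:102144362-102149511 (plus strand) and Igfbp7 at chr5:77349240-77408041 (minus strand). The ligands lie at chr10:87858265-87937042 (Igf1, plus strand) and chr7:142650766-142666816 (Igf2, minus strand), and the receptors at chr7:67952827-68233668 (Igf1r, plus strand) and chr17:12682406-12769664 (Igf2r, minus strand). RPKM are summed over the exons of a whole gene, so introns and single transcripts were not measured. Igf2r overlaps the antisense gene Airn and Igfbp7 overlaps Polr2b. By the paper's methods, counting kept the default parameters of featureCounts, and no use of strand is named. Reads from stretches that such partners share were therefore not told apart here.

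Reads per library, recovered from the steps of the RPKM values, ranged from 9735031 to 34883291, with 12638287 to 30556601 in EC, 17269127 to 34883291 in SP, 11991647 to 21790722 in OP and 9735031 to 17972882 in MM libraries. The cell types were checked against marker lists. All 7 endothelial markers were above 1 RPKM in every EC library, and their sum was 2057 to 4384 RPKM there, against at most 29.7 in any other library. All 10 osteoprogenitor markers were above 1 RPKM in every OP library. These libraries also held the cartilage genes Acan, Col2a1, Col9a1 and Matn3, with a summed level of 1430.0 to 5245 RPKM against 15.3 to 299 in SP, and whether the same cells held both bone and cartilage transcripts cannot be told from libraries of 100 cells. The stromal list was no check against EC, since Ly6a, which encodes Sca1, was 2195 to 8769 RPKM in EC and 776 to 2871 in SP. Neutrophil markers summed to 7233 RPKM in SP replicate L of healthy mice and to 8061 in SP replicate E of myeloma-bearing mice, against 0 to 179.8 in the other SP libraries, although the sort left out CD45+ cells, and the numbers of members called against SP are given with and without them. The adipocyte marker Adipoq reached 501 RPKM in EC, 519 in SP and 700.2 in OP, and the summed pericyte and smooth muscle markers 503, 499 and 65.8. In SP, Adipoq was at most 1.09 RPKM in healthy mice and 328, 48.7 and 519 in replicates D, E and J of myeloma-bearing mice, and its part in the results was not tested. All 6 myeloma markers measured were above 1 RPKM in every MM library. Of the 7 endothelial markers only Pecam1 was above 1 RPKM in every MM library (lowest 2.77, highest 23.2), while Cdh5 was at most 0.351. The 5 macrophage and osteoclast markers measured summed to 170 to 896 RPKM in MM, against at most 188 in EC, 103 in SP and 127 in OP. Among them Cd68 was at least 168 RPKM in every MM library. The source of these transcripts in MM was not tested.

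The binding protein genes together were most abundant in SP. Their summed level was 4290.1 to 7594 RPKM in the 10 SP libraries (median 5794), 1519 to 4722 in the 10 EC libraries (median 2240.4) and 954 to 2290.2 in the 8 OP libraries (median 1375). The makeup of this sum differed between the cell types. Igfbp7, whose product binds IGFs weakly and is a protein of vascular basement membranes, had the highest level of the 6 in 10 of 10 EC libraries, where it made up 60.7% to 92.6% of the sum. Igfbp6, whose product prefers IGF2 over IGF1, was the highest in 9 of 10 SP libraries, at 33.7% to 73.2% of the sum, and Igfbp7 in the remaining library, replicate I of myeloma-bearing mice. In OP, Igfbp7 led in 7 of 8 libraries and Igfbp6 in 1. Igfbp5 made up 6.16% to 14.3% of the sum in SP and 8.73% to 18.1% in OP, but 0.077% to 7.74% in EC. Igfbp3 and Igfbp4 had median shares of 9.28% and 8.70% in EC, against 0.0961% and 0.864% in SP and 0.0773% and 5.15% in OP. By mean level, Igfbp6 was gene 24 of 13260 in SP and Igfbp7 was gene 28 in EC.

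**Figure D1:**
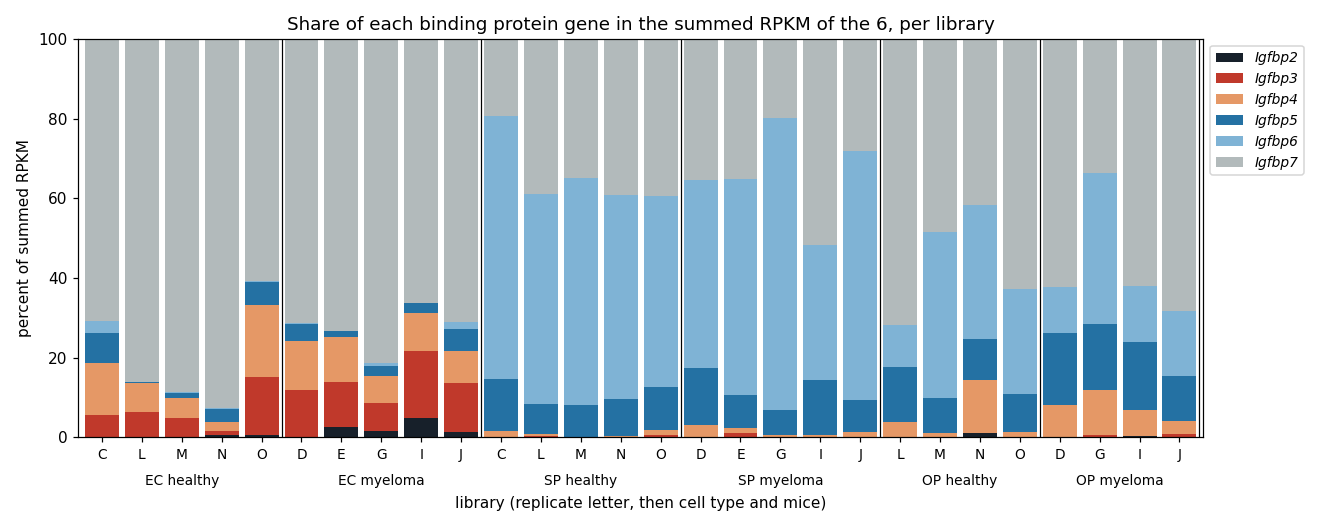
Stacked bars give the percent of the summed RPKM of Igfbp2 to Igfbp7 that each gene made up (vertical axis, 0 to 100%), 1 bar per library, grouped by cell type and mice. Igfbp7 (grey) fills 60.7% or more of every EC bar, Igfbp6 (light blue) fills 33.7% or more of every SP bar, and Igfbp3 (red) makes up at most 1.25% of any SP or OP bar.

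Igf1 was 23.8 RPKM or more in every SP library and was uneven in OP and EC, where EC replicates M and D exceeded every OP library. In SP of healthy mice it was 27.9, 51.5, 52.6, 31.5 and 57.1 RPKM in replicates C, L, M, N and O. SP of myeloma-bearing mice had 30.5, 51.3, 119, 56.2 and 23.8 RPKM in replicates D, E, G, I and J. The 2 sets overlapped, and the lowest SP library had 23.8 RPKM. In OP the values were 27.3, 7.60, 6.18 and 3.30 RPKM in L, M, N and O of healthy mice, and 0.0126, 15.02, 25.1 and 0.365 in D, G, I and J of myeloma-bearing mice. In EC, 6 of 10 libraries were under 1 RPKM. Of healthy mice, EC replicate M had 36.3 RPKM (6640 reads) and the other 4 had 0 to 0.835. EC of myeloma-bearing mice had 40.2 RPKM in replicate D, 3.79 in J, 1.99 in I, 0.00711 in E and 0 in G. The summed pericyte and smooth muscle markers, Acta2, Rgs5, Myh11 and Notch3, were 503 RPKM in EC replicate M and 0.0410 in D, the highest and the lowest of the 10 EC libraries, and the part of such cells in the Igf1 values was not tested.

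Igf2, an imprinted fetal growth factor gene, was uneven in EC and SP and near 0 in OP and MM. EC of healthy mice had 8.68, 0, 49.9, 10.3 and 5.31 RPKM in C, L, M, N and O, and EC of myeloma-bearing mice 0, 0.656, 0.159, 13.3 and 7.29 in D, E, G, I and J. SP replicate I of myeloma-bearing mice had 95.8 RPKM (10121 reads), while the other 9 SP libraries had 0.0141 to 20.6. In OP the highest of 8 libraries had 1.58 RPKM. A single library thus carried most of the Igf2 in SP of myeloma-bearing mice (mean 20.01 ± 42.4, SD, n = 5).

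Igf1r, the signalling receptor, had means of 4.92 to 6.13 RPKM across the cell types, with a wide spread between EC libraries. It was 6.65 ± 0.922 RPKM (SD, n = 5) in SP of healthy mice, where its 5 libraries ran from 5.83 to 8.11, and 4.78 ± 3.85 in those of myeloma-bearing mice. OP had 4.16 ± 0.533 (n = 4) and 8.10 ± 4.67 (n = 4). MM cells had 5.07 ± 2.91 at the bone lining and 4.76 ± 1.35 in the marrow centre (n = 5 each). EC split into libraries with and without the transcript, from 0.00475 to 12.04 RPKM in healthy and from 0 to 9.44 in myeloma-bearing mice. Igf2r, the IGF2 scavenger, had means between 2.45 and 5.61 RPKM in the 6 niche groups, 0.894 ± 0.639 in MM of the bone lining and 1.18 ± 0.597 in MM of the central marrow. Its range within a group was wide, such as 0.0553 to 14.3 RPKM in OP of myeloma-bearing mice. Airn, which overlaps Igf2r in antisense, had group means of 0.442 to 14.7 RPKM in the niche groups and at most 0.0214 in any MM library. Its part in the Igf2r values was not tested.

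Igfbp2, which encodes a binding protein with an integrin-binding motif, was found chiefly in EC. Its mean there was 24.4 RPKM, above the 12.6 of Igfbp6. In SP, OP and MM, Igfbp2 had the lowest mean of the binding protein genes, in OP by little (2.76 RPKM, beside 2.77 for Igfbp3). In EC of healthy mice it was 0, 4.89, 0, 10.8 and 17.3 RPKM in C, L, M, N and O. In EC of myeloma-bearing mice it was 0, 57.4, 27.0, 94.6 and 31.8 RPKM in D, E, G, I and J. Thus 4 of 5 libraries of myeloma-bearing mice were above the highest healthy library, and the remaining library had no read. Of 10 SP libraries 8 had no read, 1 had 0.0451 RPKM and replicate L of healthy mice, which held neutrophil markers, had 12.98. Of 8 OP libraries 6 had no read, while N of healthy mice had 16.7 and I of myeloma-bearing mice 5.40. All 10 MM libraries had 0 reads, which allows at most 0.169 RPKM in any library of the bone lining and 0.114 in any of the central marrow, by counting error alone.

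Igfbp3 and Igfbp4 had their highest mean levels in EC. Igfbp3 encodes the main IGF carrier of serum, and it was 84.3, 295, 125, 24.1 and 396 RPKM in EC C, L, M, N and O and 301, 261, 123, 336 and 267 in EC D, E, G, I and J. In EC of myeloma-bearing mice every library was above the 77.7 RPKM that was the highest in SP. In SP, Igfbp3 ranged from 0.0188 to 30.6 RPKM in healthy and from 0.539 to 77.7 in myeloma-bearing mice, the latter in replicate E, which held neutrophil markers. In OP it was 0.0253 to 2.05 RPKM in healthy and 0.0257 to 11.9 in myeloma-bearing mice. Igfbp4, which encodes a binding protein known to hold back IGF action until it is cut, was 198, 349, 122, 50.5 and 484 RPKM in EC of healthy mice and 309.7, 256, 115, 187 and 175 in those of myeloma-bearing mice. SP had 9.33 to 90.3 and 29.3 to 187 RPKM, and OP had 19.6 to 185 and 40.6 to 108. The ranges of EC, SP and OP for Igfbp4 overlapped in healthy mice.

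The mean levels of Igfbp5 and Igfbp6 were highest in SP, lower in OP and lowest in EC among the niche cells. Igfbp5, which encodes a binding protein that is stored in bone matrix, was 804, 579, 456, 513 and 553 RPKM in SP of healthy mice (C, L, M, N and O) and 855, 506, 362, 787 and 352 in SP of myeloma-bearing mice (D, E, G, I and J). OP had 199, 200.1, 143 and 127 RPKM (L, M, N and O) and 194, 157, 257 and 140.4 (D, G, I and J). No OP library reached the lowest SP library. EC had 3.64 to 153 RPKM in healthy and 34.0 to 124 in myeloma-bearing mice. The neighbours Igfbp2 and Igfbp5 thus had their highest means in different cell types, EC and SP, although in EC the mean of Igfbp5 (73.6 RPKM) was above that of Igfbp2 (24.4).

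Igfbp6 differed by the most RPKM between niche cell types. SP had 4042, 3999, 3247, 2807 and 2452 RPKM in healthy mice and 2804, 3362, 4304, 1904 and 2675 in myeloma-bearing mice. OP had 149, 954, 466 and 359 RPKM in healthy mice (L, M, N and O) and 123, 363, 211 and 204 in myeloma-bearing mice (D, G, I and J). EC had at most 43.1 and 41.3 RPKM. The 3 cell types did not overlap in either set of mice. Igfbp7 was high throughout the niche, at 1076 to 4068 RPKM in EC and 1197 to 2953 in SP of healthy mice, 1314 to 1793 in EC and 1173 to 2924 in SP of myeloma-bearing mice, and 580.3 to 1112 and 319.8 to 934 in OP. Polr2b, which overlaps Igfbp7, had group means of 7.71 to 49.98 RPKM in the niche groups, under those of Igfbp7 in each, and 31.5 and 30.5 in lining and central MM, above those of Igfbp7 there.

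**Figure D2:**
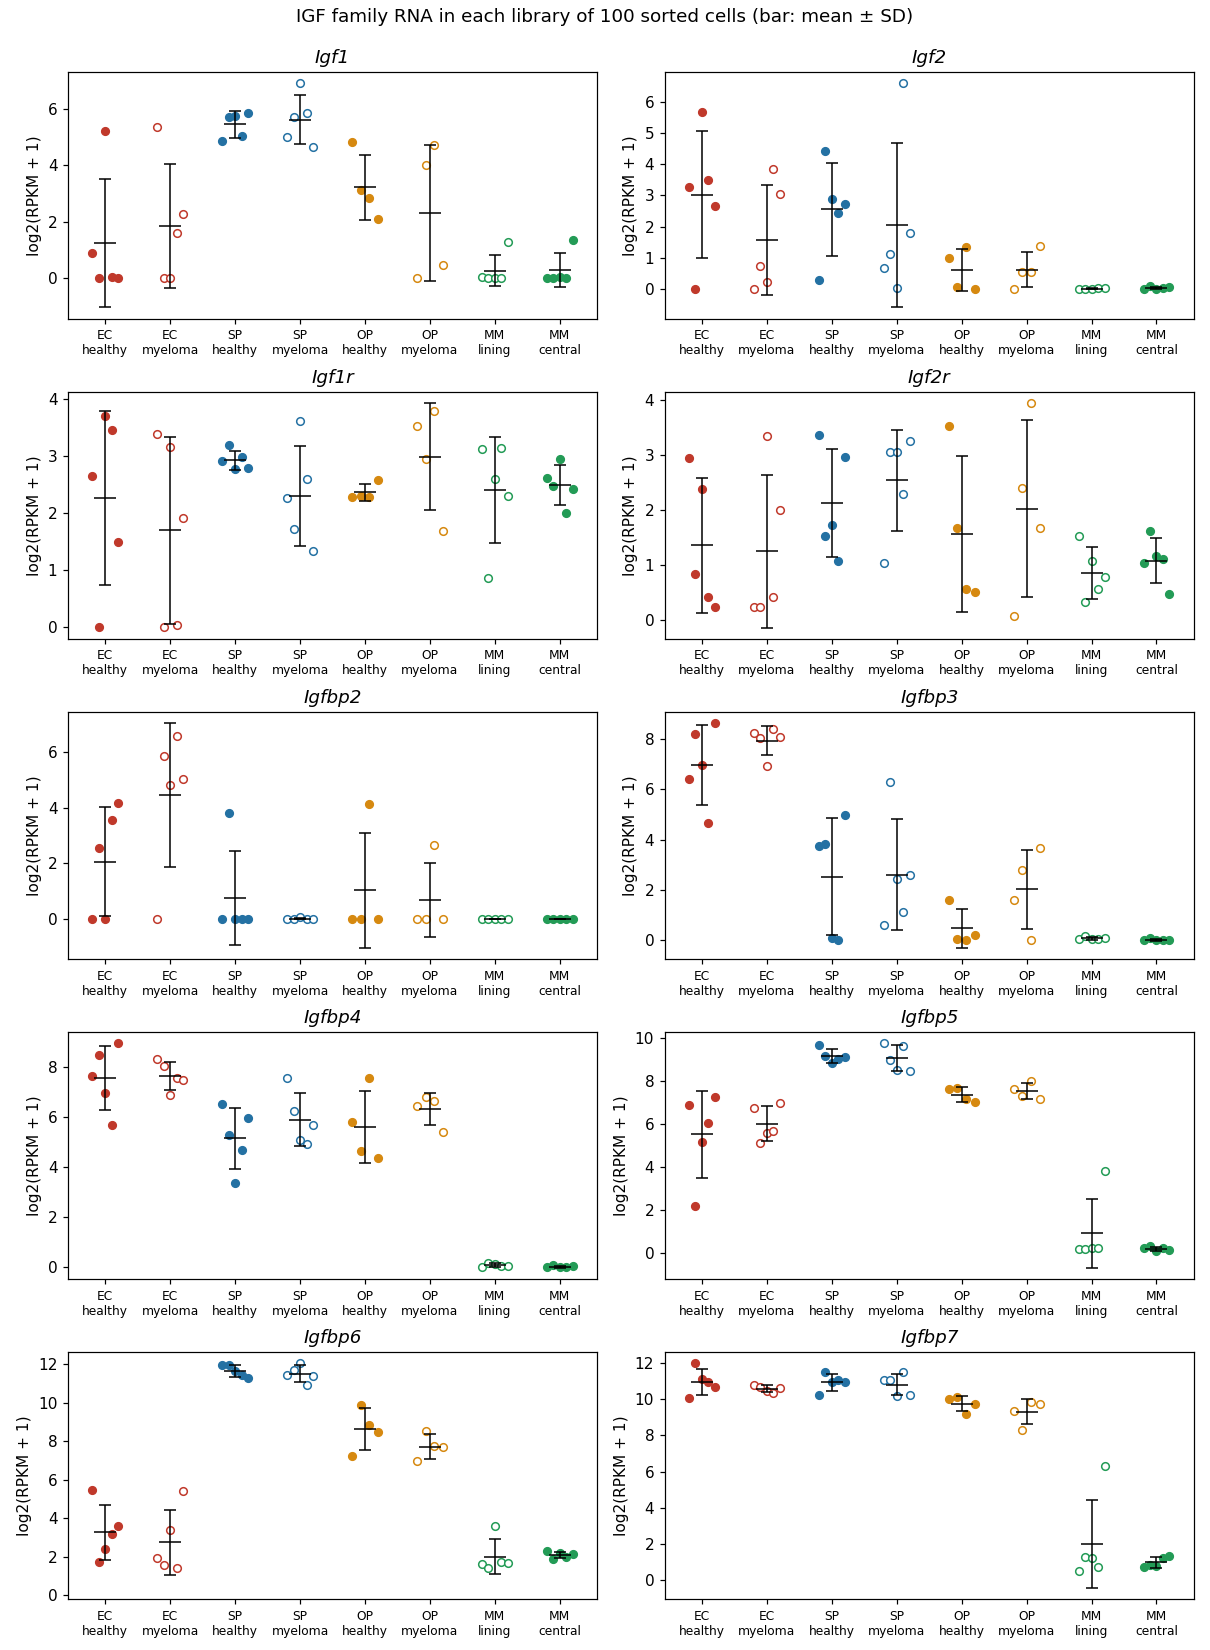
Each panel gives a member as log2(RPKM + 1) (vertical axis) in the 8 groups (horizontal axis), with a point for each library and bars for mean ± SD. Filled points are healthy mice or central marrow, and open points are myeloma-bearing mice or bone lining. The points of healthy and myeloma-bearing mice overlap in all 10 panels for EC, SP and OP, while the MM libraries lie near 0 for Igf2, Igfbp2, Igfbp3 and Igfbp4 and level with the niche for Igf1r.

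Differences between niche cell types were tested within healthy and within myeloma-bearing mice with limma on log2(RPKM + 1), with genes kept where 4 or more of the compared libraries exceeded 1 RPKM. A gene was called at a Benjamini-Hochberg adjusted p below 0.1 over all genes tested and an absolute log2 difference above 1. In these bulk libraries, fewer cells of a type that makes a transcript and less of it per cell cannot be told apart. The comparisons that follow share libraries (SP enters both OP against SP and EC against SP, for example), so each is given on its own. Differences are stated as the first group minus the second on the log2(RPKM + 1) scale, which understates the differences of low genes.

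OP against SP gave 3 called members in healthy mice and 3 in myeloma-bearing mice, all of them binding protein genes that were lower in OP. In healthy mice 3 of 9 members tested were called, where 3.58% of all genes tested were, and in myeloma-bearing mice 3 of 9, where 3.35% were. Igfbp6 differed by -3.04 ± 0.415 (SE; adjusted p = 0.00152, limma) and -3.79 ± 0.353 (adjusted p = 1.43e-05), so that its mean was 6.86 times and 13.4 times as high in SP as in OP. For Igfbp5 the differences were -1.79 ± 0.300 (adjusted p = 0.00494) and -1.55 ± 0.397 (adjusted p = 0.0558), and for Igfbp7 -1.19 ± 0.298 (adjusted p = 0.0485) and -1.49 ± 0.377 (adjusted p = 0.0512). Igf1 missed the threshold in both, at -2.22 ± 0.644 (adjusted p = 0.102) and -3.32 ± 1.00 (adjusted p = 0.115). The groups did not overlap for 5 members in healthy mice (Igf1, Igf1r, Igfbp5, Igfbp6 and Igfbp7; 6.18% of all genes tested did not) and for 3 in myeloma-bearing mice (Igfbp5, Igfbp6 and Igfbp7; 5.64%). Igfbp2 was not tested, since too few of these libraries were above 1 RPKM.

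The Igfbp6 call held in every fit that left out a library, with differences from -3.47 to -2.58 in healthy and from -4.05 to -3.53 in myeloma-bearing mice, but was lost with voom-limma on reads of all 38 libraries (adjusted p = 0.338 and 0.487). Without SP replicate L, which held neutrophil markers, 2 members were called in healthy mice (Igfbp5 and Igfbp6), and without SP replicate E, which held them too, 1 member was called in myeloma-bearing mice (Igfbp6). In EC against SP, 5 and 6 members were called without these libraries, as with them. The calls of Igfbp7 were lost when any of 4 single libraries was left out in either set of mice (adjusted p up to 0.165 and 0.177), and that of Igfbp5 in myeloma-bearing mice when any of 4 was (adjusted p up to 0.183).

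EC against SP gave called members in both directions. In healthy mice 5 of 10 members were called (17.3% of all genes tested were) and in myeloma-bearing mice 6 of 10 (16.1%). Igfbp3 and Igfbp4 were higher in EC, by 4.44 ± 1.11 (adjusted p = 0.0148) and 2.38 ± 0.753 (adjusted p = 0.0504) in healthy mice and by 5.32 ± 0.909 (adjusted p = 0.000885) and 1.74 ± 0.562 (adjusted p = 0.0566) in myeloma-bearing mice. Igfbp2 was called higher in EC in myeloma-bearing mice (4.45 ± 1.09, adjusted p = 0.0133). It was kept only through 4 EC libraries above 1 RPKM, so the direction of that call was set by the filter, and it was not tested when any of the 4 was left out. In healthy mice the difference of Igfbp2 was 1.30 ± 1.04 (adjusted p = 0.501). Whether the EC minus SP difference of Igfbp2 itself depended on the mice was tested as an interaction, 3.14 ± 1.57, which had an unadjusted p of 0.0561 and an adjusted p of 0.946.

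Igfbp6, Igf1 and Igfbp5 were lower in EC than in SP in both sets of mice. The difference of Igfbp6 was -8.40 ± 0.621 (adjusted p = 4.64e-07) in healthy and -8.77 ± 0.681 (adjusted p = 4.03e-07) in myeloma-bearing mice. Igf1 differed by -4.21 ± 1.04 (adjusted p = 0.0139) and -3.77 ± 1.01 (adjusted p = 0.0221), although EC replicates M and D overlapped the SP range. Igfbp5 differed by -3.64 ± 0.789 (adjusted p = 0.00613) and -3.04 ± 0.478 (adjusted p = 0.000451). The groups did not overlap for 2 members in healthy mice (Igfbp5 and Igfbp6; 11.5% of all genes tested) and for 3 in myeloma-bearing mice (Igfbp3, Igfbp5 and Igfbp6; 10.8%). For Igfbp7 the difference was 0.01 (95% interval -0.72 to 0.74) in healthy and -0.23 (-0.80 to 0.34) in myeloma-bearing mice. With voom-limma on the reads of the libraries compared, Igfbp3 and Igfbp4 in healthy mice and Igfbp6 in myeloma-bearing mice missed the threshold (adjusted p = 0.111, 0.147 and 0.113), and leaving out any of 3 libraries in healthy and any of 5 in myeloma-bearing mice ended the call of Igfbp4 (adjusted p up to 0.123 in both).

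EC against OP called 3 of 10 members in healthy mice (16.5% of all genes tested) and 6 of 9 in myeloma-bearing mice (17.7%). Igfbp3 was higher in EC by 6.50 ± 0.945 (adjusted p = 0.000581) and 5.90 ± 0.746 (adjusted p = 0.000145), and Igfbp6 was lower by -5.35 ± 0.852 (adjusted p = 0.00108) and -4.98 ± 0.848 (adjusted p = 0.00132). Igfbp7 was higher in EC by 1.20 ± 0.370 (adjusted p = 0.0521) and 1.26 ± 0.313 (adjusted p = 0.0148). In myeloma-bearing mice Igfbp2 (3.79 ± 1.27, adjusted p = 0.0673) and Igfbp4 (1.33 ± 0.471, adjusted p = 0.0851) were also called higher and Igfbp5 (-1.50 ± 0.510, adjusted p = 0.0731) lower. Igf1 was not called in either set of mice. With single libraries left out, its difference was -2.99 to -1.46 in healthy and -1.33 to 0.353 in myeloma-bearing mice. Only the healthy fit without EC replicate M called it. The groups did not overlap for 2 members in healthy mice (Igfbp3 and Igfbp6; 14.1% of all genes tested) and for 5 in myeloma-bearing mice (Igfbp3 to Igfbp7; 15.1%). The calls of Igfbp3 and Igfbp6 held in every fit that left out a library, while those of Igfbp2, Igfbp4 and Igfbp5 were lost without any of 7, 8 and 7 of the 9 libraries. The call of Igfbp7 was lost without any of 5 of 9 libraries in healthy mice (adjusted p up to 0.187) and without OP replicate G in myeloma-bearing mice (difference 0.93). When libraries were rescaled to the median of common genes, the median over all genes moved from -0.22 to -0.56 in healthy and from -0.09 to -0.30 in myeloma-bearing mice, and the difference of Igfbp7 became 0.68 and 0.96, under the threshold. The same rescaling turned 551 genes higher in EC and 810 lower into 434 and 1010 in healthy mice. It moved the median in OP against SP from 0.00 to 0.15 in healthy and from -0.01 to 0.14 in myeloma-bearing mice, which took Igfbp7 to -0.997 in healthy mice, under the threshold.

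**Figure D3:**
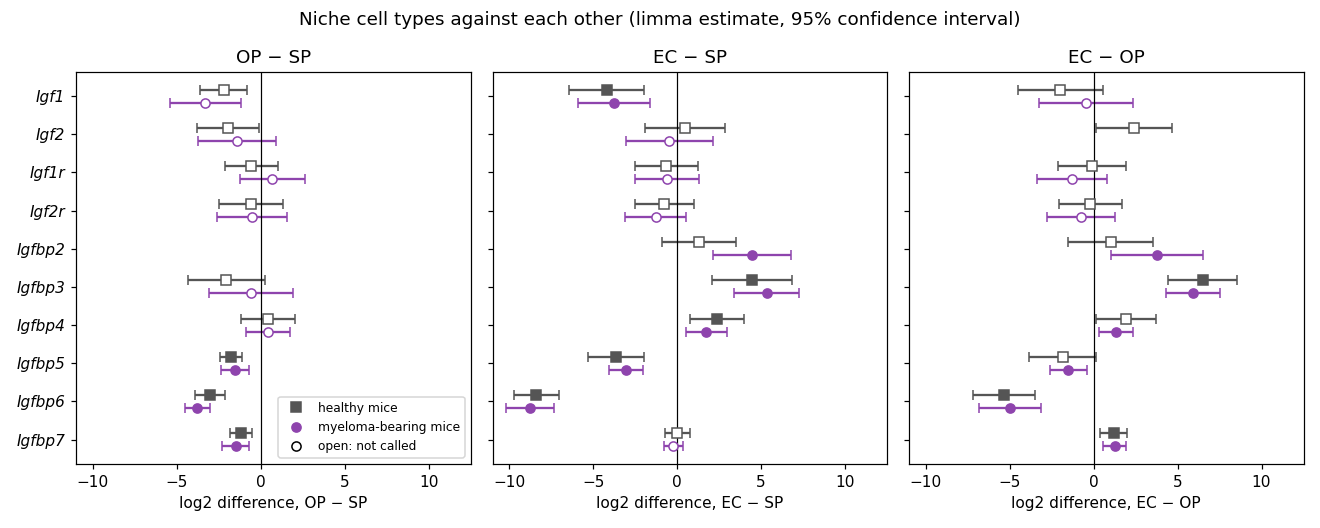
Log2 differences between niche cell types (horizontal axis) with 95% confidence intervals for the 10 members (vertical axis), in healthy (squares) and myeloma-bearing mice (circles), with filled marks for called members and no mark where a member was not tested. Igfbp6 lies left of 0 in all panels, Igfbp3 lies right of 0 in both EC panels, and the receptors Igf1r and Igf2r are open in all 3.

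Neither receptor gene was called between niche cell types in either set of mice. For Igf1r the 95% interval of the difference was -2.16 to 1.04 (OP minus SP) and -2.54 to 1.22 (EC minus SP) in healthy mice. Intervals of this width leave room for a difference of several fold. Igf2 was not called either, at -1.95 (adjusted p = 0.353) for OP minus SP and 2.42 (adjusted p = 0.173) for EC minus OP in healthy mice.

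The effect of myeloma on the niche was compared within each cell type, and no member was called. In EC 0 of 10 members tested were called, where 0% of all genes tested were (0 of 7880, with 414 at an unadjusted p below 0.05). In SP 0 of 9 were called against 0% (0 of 8747, with 437 below 0.05), and in OP 0 of 8 against 0.0115% (1 of 8664, with 422 below 0.05). No member had an unadjusted p below 0.05 in limma, and voom-limma on the recovered reads called 0 members in each (and 4, 0 and 0 of all genes). The counts over all genes depended on the fit, since a single limma fit of all 38 libraries called 258, 31 and 16 genes in EC, SP and OP, and 0 members. Without SP replicate L or E 0 members were called in SP as well. The groups overlapped for every member, where 0.914%, 0.697% and 2.65% of genes tested did not overlap in EC, SP and OP.

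For Igfbp7 the difference between myeloma-bearing and healthy mice was -0.38 (95% interval -1.05 to 0.30) in EC, -0.14 (-0.79 to 0.51) in SP and -0.44 (-1.23 to 0.36) in OP. For Igfbp6 in SP it was -0.16 (-0.70 to 0.38), and for Igfbp5 -0.09 (-0.79 to 0.60) in SP and 0.15 (-0.64 to 0.94) in OP. Igfbp6 in OP was at -0.90 (-1.99 to 0.18, unadjusted p = 0.0966, limma), with a mean 2.14 times as high in healthy mice. The intervals of Igfbp5 in SP and OP and of Igfbp6 in SP hold only differences of less than 1 on the log2 scale in either direction. The interval of Igf1 in SP was -0.98 to 1.33. The estimates farthest from 0 were those of Igfbp2 in EC (2.395, interval -0.43 to 5.22, unadjusted p = 0.0915), Igfbp3 in OP (1.56, -0.24 to 3.36, unadjusted p = 0.0851) and Igf2 in EC (-1.45, -4.04 to 1.13, unadjusted p = 0.254), each with an adjusted p of at least 0.930 by limma. Interactions that compare the effect of myeloma between cell types called 0 of 9 members for SP minus OP, 0 of 10 for EC minus SP and 0 of 10 for EC minus OP, as they did 0% of all genes (437, 552 and 516 genes had an unadjusted p below 0.05).

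**Figure D4:**
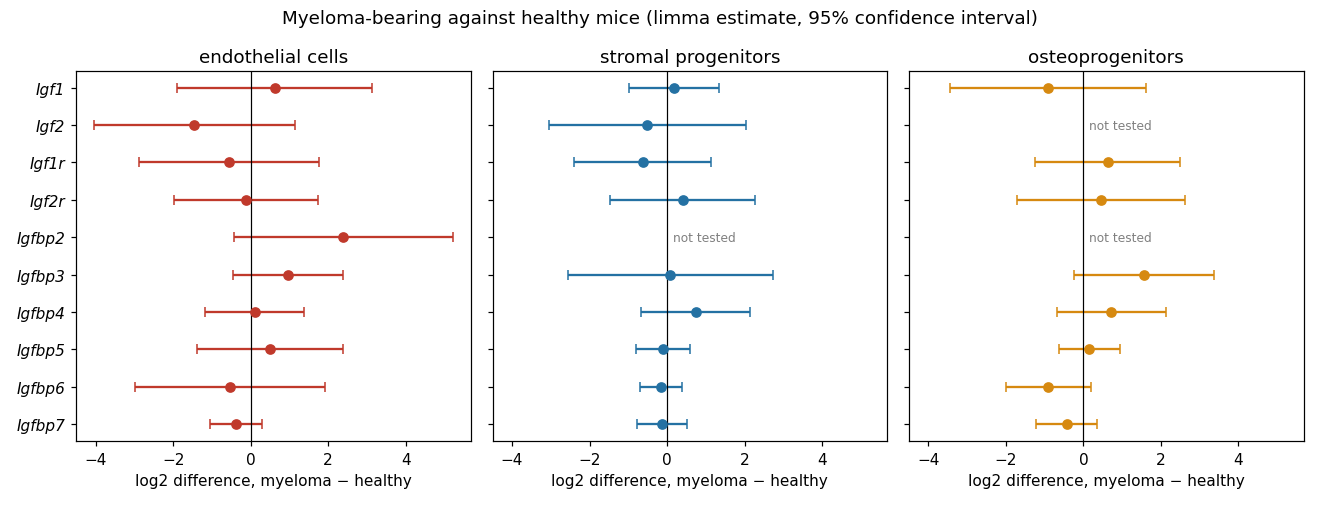
Log2 difference between myeloma-bearing and healthy mice (horizontal axis) with its 95% confidence interval for each member (vertical axis), in EC, SP and OP, where a member above 1 RPKM in fewer than 4 libraries was not tested. All intervals cross 0, and within SP those of Igfbp5, Igfbp6 and Igfbp7 are the narrowest.

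Igf1r and Igfbp6 exceeded 1 RPKM in 9 and 10 of the 10 MM libraries, and no other member did so in more than 6. In MM of the bone lining Igf1r was 7.72, 0.817, 5.05, 7.81 and 3.94 RPKM in D, E, G, I and J, and in the central marrow it was 5.16, 4.55, 6.74, 3.02 and 4.34. Igf1 was 1.398 RPKM in J of the bone lining (146 reads) and 1.54 in J of the central marrow (256 reads), and at most 0.0185 in the other 8 libraries. Igf2 did not exceed 0.0699 RPKM, Igfbp3 0.116 and Igfbp4 0.137. Igfbp6 was detected in all 10 libraries, at 1.65 to 11.3 RPKM at the lining and 2.67 to 3.84 in the centre, on 30 to 330 reads.

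Replicate J of the bone lining stood apart from the other MM libraries. It had 78.9 RPKM of Igfbp7 and 12.9 of Igfbp5, against 0.403 to 1.51 and 0.066 to 0.259 in the other 9. Its summed stromal markers were 10.0 RPKM, within the 0.50 to 38.1 of the other bone lining libraries, its osteoprogenitor markers summed to 76.4 RPKM (25.2 to 75.5 in the others) and its endothelial markers to 15.9 (6.27 to 18.3). The part of niche RNA in its values was not tested.

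No member was called between lining and central MM. Of 4 members tested 0 were called by limma and 0 had an unadjusted p below 0.05, while 0.203% of all genes tested were called and 1.47% did not overlap. No member was without overlap. The difference was -0.09 (95% interval -1.09 to 0.91) for Igf1r, -0.22 (-1.06 to 0.62) for Igf2r, -0.10 (-1.08 to 0.89) for Igfbp6 and 1.03 (-0.75 to 2.82) for Igfbp7, the last with replicate J included. Voom-limma called 0 members as well.

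MM cells of the bone lining were compared with each niche cell type of the same mice. Against EC 5 of 9 members were called (41.5% of all genes tested were), against SP 7 of 8 (42.4%) and against OP 4 of 6 (42.9%), and every called member was lower in MM. No MM library of the bone lining exceeded 1 RPKM for Igfbp2, Igfbp3 or Igfbp4, which were kept only through the niche libraries, so the filter set the direction of their calls in all these comparisons. The groups did not overlap for 4, 6 and 4 members (24.1%, 25.1% and 29.9% of all genes tested). Igfbp7 differed by -8.59 ± 0.926 against EC (adjusted p = 1.34e-05), -8.83 ± 0.919 against SP (adjusted p = 5.87e-06) and -7.33 ± 1.03 against OP (adjusted p = 0.000126). Igfbp5 differed by -5.09 ± 0.776, -8.13 ± 0.701 and -6.59 ± 0.745, and Igfbp4 by -7.54 ± 0.475, -5.80 ± 0.589 and -6.21 ± 0.478. Igfbp6 was lower than in SP (-9.50 ± 0.454, adjusted p = 5.06e-09) and OP (-5.72 ± 0.552), and its difference from EC was -0.74 (95% interval -2.51 to 1.03). Igfbp3 was called lower than in EC (-7.85 ± 0.473) and SP (-2.54 ± 0.857). Without SP replicate E, which held neutrophil markers and had the highest Igfbp3, 6 members were called against SP and Igfbp3 was not tested, since too few libraries were above 1 RPKM. Igfbp2 had no read in MM, and its mean in EC of myeloma-bearing mice was at least 249-fold higher than 3 reads in a bone lining library would give.

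Igf1 and Igf2r were lower in MM of the bone lining than in SP, by -5.35 ± 0.585 (adjusted p = 9.34e-06) and -1.68 ± 0.547 (adjusted p = 0.0279). The library sizes used lower MM against SP, which weighs more on the smaller difference of Igf2r. Airn, which overlaps Igf2r, had means of 13.98 RPKM in SP of myeloma-bearing mice and 0.00359 in MM of the bone lining, and its part was not tested. Igf1r was not called against any niche cell type, at 0.71 (95% interval -1.02 to 2.43) against EC, 0.10 (-1.27 to 1.48) against SP and -0.59 (-1.98 to 0.81) against OP. Without replicate J the same numbers of members were called, 5, 7 and 4. Across all genes the median difference of MM from the niche was 0.49, 0.35 and 0.39, the opposite sign to that of the binding protein genes called.

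Beyond the members, 55 genes of the IGF system were listed, among them other family members, proteases that cut binding proteins and their inhibitors, the growth hormone axis, receptor adaptors, the PI3K and AKT kinases, downstream effectors and genes of the imprinted growth network. Of these 49 were measured. None was called between myeloma-bearing and healthy mice (0 of 30 tested in EC, 0 of 39 in SP and 0 of 39 in OP) or between bone lining and central marrow MM (0 of 30), and the median differences were 0.21, 0.13, 0.34 and -0.05, beside 0.07, 0.00, -0.03 and -0.01 over all genes. At an unadjusted p below 0.05 there were 0, 4, 1 and 1 genes of the list. Interactions called 0 of 45, 42 and 44.

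Among the proteases that cut binding proteins and their inhibitors, Htra1 and Stc1 had the highest mean levels over all libraries. Htra1, a serine protease that cuts binding proteins, was 855 ± 221 RPKM (SD, n = 10) in SP, 314 ± 91.7 (n = 8) in OP and 48.8 ± 49.5 (n = 10) in EC. It was lower in OP than in SP in healthy (-1.49, adjusted p = 0.0124) and myeloma-bearing mice (-1.41, adjusted p = 0.0542), as the only gene of the list called there (1 of 37 tested and 1 of 39, where 3.58% and 3.35% of all genes were, with medians of 0.04 and 0.25). It was also lower in EC than in SP (-5.26 and -5.07) and than in OP (-3.77 and -3.65). Stc1, which encodes a stanniocalcin known to inhibit the binding protein protease PAPP-A, was 35.2 ± 30.8 RPKM in EC, 0.405 ± 0.967 in SP and 4.52 ± 12.8 in OP. It was called higher in EC than in SP (3.24 and 5.02) and than in OP (3.42 and 4.12). A single library held most of its RPKM in SP (3.05) and in OP (36.1). Stc1 was therefore kept mainly through EC libraries, and the filter set the direction of at least part of these calls.

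EC against SP called 5 of 33 listed genes in healthy mice, 2 higher and 3 lower, and 5 of 39 in myeloma-bearing mice, also 2 higher and 3 lower, where 17.3% and 16.1% of all genes tested were called. Beside Htra1 and Stc1 these were, in healthy mice, Adam12 (3.31), Pik3r2 (-2.48) and Meg3 (-2.47), and, in myeloma-bearing mice, Insr (3.75), Igf2bp2 (-2.20) and Meg3 (-2.57). Igf2bp2 was at most 0.0438 RPKM in EC and was kept only through SP libraries, which set its direction. EC against OP called 3 of 33 (1 higher and 2 lower), with Meg3 (-2.99) beside Htra1 and Stc1, and 6 of 38 (2 higher and 4 lower), with Insr (3.64), Irs1 (-3.47), Stat5a (-2.64) and Meg3 (-2.82), where 16.5% and 17.7% of all genes were. Meg3 had a mean of 0.413 RPKM in EC, where a single library held most of it (3.77), and at least 1.89 in every SP and 4.53 in every OP library. It was therefore kept mainly through SP or OP libraries, and the filter set the direction of at least part of its calls, as for Stc1. Adam12, Pik3r2, Meg3, Irs1 and Stat5a are named because they were called, after their values were seen. The medians over the genes tested were -0.52 and -0.41 (EC minus SP) and -0.61 and -0.55 (EC minus OP) in healthy and myeloma-bearing mice, beside -0.21, -0.11, -0.22 and -0.09 over all genes. Insr, the insulin receptor gene, was 29.1 ± 14.03 RPKM in EC, 2.41 ± 2.58 in SP and 3.49 ± 3.35 in OP. It was 0.00857 ± 0.00802 in MM (n = 10), where Igf1r was detected in every library.

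In MM of the bone lining 10 of 37 listed genes were called against EC (3 higher and 7 lower), 10 of 33 against SP (2 and 8) and 15 of 34 against OP (3 and 12), where 41.5%, 42.4% and 42.9% of all genes tested were. Their medians were -0.36, -0.38 and -0.76, beside 0.49, 0.35 and 0.39 over all genes. Eif4ebp1, whose product is a translation repressor downstream of mTOR, was higher than in all 3 (2.22, 2.43 and 2.24). Its level was 552 ± 164 RPKM in MM, 126 ± 88.2 in EC, 156 ± 80.9 in SP and 135 ± 125 in OP. Igf2bp2, which encodes an RNA-binding protein that binds IGF2 mRNA, was 15.8 ± 7.66 RPKM in MM and 0.0219 ± 0.0135 in EC. Grb10, an adaptor known to dampen receptor signalling, was lower than in all 3 (-4.72, -4.72 and -4.97), as was the growth arrest gene Cdkn1c (-5.43, -5.24 and -4.11). No MM library exceeded 1 RPKM for either gene, so the filter set the direction of these calls. Socs2, a growth hormone feedback gene, was called lower in MM than in EC, SP and OP (-2.35, -2.89 and -3.50), and the growth hormone receptor gene Ghr lower than in SP and OP (-3.62 and -3.35). Other genes of highest level in their roles were Grb2 (6.19 RPKM in MM), Akt1 (8.82) and Rheb (206), with means of 6.98 to 9.06, 10.1 to 32.0 and 203 to 296 RPKM in the niche cell types, and Plagl1 (0.0055 in MM, 4.05 to 16.5 in the niche).

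The genes whose log2(RPKM + 1) followed each member most closely over the 38 libraries, among 12683 genes, are given as a description. These libraries share cell types and sorts, and no p is attached. Igfbp7 went with Vim, Anxa2 and Prkcdbp (Pearson r = 0.979, 0.977 and 0.975), Igfbp6 with Dcn, Slurp1 and Abi3bp (0.975, 0.974 and 0.970), and Igfbp5 with Serpine2, Bgn and Anxa1 (0.972, 0.966 and 0.957). Igfbp4 went with Marcks, Cd200 and Cxcl12 (0.955, 0.955 and 0.946), and Igfbp3 with Ace, Ecscr and Darc (0.889, 0.886 and 0.883). For Igf1 the closest were Tgfbi, Vcan and Col6a2 (0.839, 0.818 and 0.817), and for Igfbp2 St8sia6, Nxpe4 and Gpr146 (0.765, 0.761 and 0.748). Igf2 (Bmp15, Ankrd29 and Kremen1, at most 0.753), Igf1r (Stard3nl, Vapa and Rab24, at most 0.694) and Igf2r (Zfp189, Cdk14 and Macrod1, at most 0.694) had weaker partners. Among the members themselves the highest values were between Igfbp4 and Igfbp7 (0.892), Igfbp5 and Igfbp7 (0.890), and Igfbp5 and Igfbp6 (0.823), and Igf1 went with Igfbp6 at 0.775 and with Igfbp5 at 0.741.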

How the data were processed

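RNA-Seq was done on 38 libraries of 100 sorted cells. The authors deposited a single table of RPKM for 13260 genes, and the submitters' processing notes name STAR 2.4.0, featureCounts of Subread 1.4.5-p1 and edgeR, with reads aligned to GRCm38 (mm10). By the paper's methods, featureCounts kept its default parameters, and no use of strand is named. The deposited RPKM were used as log2(RPKM + 1). Whole reads were recovered from the steps of the values for 13260 of 13260 genes (within 0.01 read, 100% of genes). Totals were 9735031 to 34883291 reads, which limit counting error only.

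Groups followed the sample labels, and 0 columns lacked a sample. Each comparison was fitted with limma 3.58.1 (R 4.3.3, empirical Bayes with a trend) on the libraries compared, keeping genes that exceeded 1 RPKM in 4 or more of them, and called at a Benjamini-Hochberg adjusted p below 0.1 with an absolute log2 difference above 1. p-values were 2-sided. Interactions used the 4 groups involved. Tables and figures were made with numpy 2.4.6, pandas 2.3.3 and matplotlib 3.10.9. The fits and the recovery of reads were tested on simulated data. Alternatives were a pseudocount of 0.1, no filter, all 38 libraries in a single fit, voom-limma on recovered reads (compared libraries, or all 38), rescaling to the median of common genes, leaving out each library, and the replicate letter as a block. The block for the interactions was added after seeing the data.

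The text names all 10 members, the 3 genes most correlated with each, and, of the listed IGF system genes, those called between healthy and myeloma-bearing mice or between bone lining and central marrow, otherwise the 2 of highest mean level in each role. A gene that this rule names is not reported here. The members, lists and markers were chosen with earlier results of these data known. Gene positions came from GENCODE M21 and promoters from RefSeq.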

Additional observations from a re-analysis of the deposited data

Results flagged for a closer look

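In groups of 4 or 5 libraries, 14 of the 70 pairs of a member and a group with any library above 1 RPKM held a library that lay far from the others by Dixon's criterion on the log2(RPKM + 1) scale. The criterion flags about 1 in 20 where values are normally distributed. Many values here lie at or near 0, and a lone library above 0 is always flagged, so that rate does not apply to these counts. For Igf1 these were EC replicate M of healthy mice (36.3 RPKM, others 0 to 0.835) and replicate J of MM in the bone lining (1.398, others at most 0.0156) and in the central marrow (1.54, others at most 0.0185). For Igf2 it was SP replicate I of myeloma-bearing mice (95.8 RPKM, others at most 2.44), and for Igf1r OP replicate O of healthy mice (4.96, others 3.87 to 3.94). Igfbp2 stood apart in EC replicate D of myeloma-bearing mice (0 RPKM, others 27.0 to 94.6), and in SP replicate L (12.98) and OP replicate N (16.7) of healthy mice and OP replicate I of myeloma-bearing mice (5.40), where the other libraries of each group had 0. Igfbp3 was low in EC replicate G of myeloma-bearing mice (123, others 261 to 336) and high in OP replicate L of healthy mice (2.05, others at most 0.156).

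MM replicate J of the bone lining was far from the others for Igfbp5 (12.9, others 0.133 to 0.188) and Igfbp7 (78.9, others 0.403 to 1.402), and replicate G for Igfbp6 (11.3, others 1.65 to 2.31). Replicate G also had the highest summed stromal markers of the bone lining MM libraries (38.1 RPKM). The part of other cells in these values was not tested.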

How the results depend on the processing

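Of 350 alternatives to the 50 member results followed, 295 kept direction and side of the threshold, 46 kept the direction but were no longer called, 9 became called and 0 reversed. The causes were not tested. A fit of all 38 libraries called 1 member for OP against SP in healthy mice, 5 for EC against OP in healthy and 3 in myeloma-bearing mice. Voom-limma on all 38 called 0 for OP against SP in either set of mice, 3 for EC against OP in myeloma-bearing mice and 1 for MM against OP, and voom-limma on the libraries compared called 3 for EC against SP in healthy mice. Leaving out single libraries gave 1 to 4 members for OP against SP in myeloma-bearing mice (1 without SP replicate D, SP replicate E or OP replicate G) and 2 to 5 for EC against OP in myeloma-bearing mice (3 without EC replicate E or I or OP replicate D or J, 2 without OP replicate G). Between healthy and myeloma-bearing mice and between MM locations 0 members were called under every alternative run. Over all genes, the fit of all 38 libraries called 258 (EC), 31 (SP) and 16 (OP) genes between healthy and myeloma-bearing mice and voom-limma on all 38 called 295, 41 and 8, against 0, 0 and 1. Without a filter the counts were 2 in EC and 0 in OP, and voom-limma on the libraries compared called 4 and 0. For MM locations 18 became 1 without a filter, and 8 and 9 with voom-limma. With all 38 libraries EC against SP and EC against OP in healthy mice called 2376 and 2232 genes (voom-limma 2563 and 2185), OP against SP in myeloma-bearing mice 543, and voom-limma called 2640 for MM against OP. Interactions called up to 16, 35 and 25 genes (SP minus OP, EC minus SP, EC minus OP) against 0.

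Letters are shared between cell types of the same mice, but same-letter correlations were -0.0488 to 0.145 and no comparison had every pair above 0.1, so the letters were not taken to pair libraries, and whether they stand for mice is not known. In EC against OP in myeloma-bearing mice, 4 of 4 correlated best with their own letter, as did 3 of 4 for MM against OP and 3 of 5 for MM against EC. With the letter as a replicate block, members called were 3, 5 and 3 (OP against SP, EC against SP, EC against OP) in healthy mice, 3, 6 and 4 in myeloma-bearing mice, 5, 7 and 4 for MM against EC, SP and OP, and 0 for MM locations and interactions. Over all genes, in the same order, the block called 268, 1414 and 1237, then 195 (against 295), 1316 and 1407, then 3844, 4023 and 3654, and 12 for MM locations. Igfbp4 (adjusted p = 0.152) and Igfbp5 (adjusted p = 0.164, limma with the block) were not called for EC against OP in myeloma-bearing mice. With 4 or 5 libraries of 100 cells a group, a value of 0 is a limit of detection.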
